A study of Sus scrofa with 4 samples.

Results

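Most polyadenylated transcripts of animals carry a short signal a little upstream of the point where the RNA is cut and the poly(A) tail is added. Its canonical form is AATAAA, and the commonest variant, ATTAAA, has T in place of the second A; the signal is bound by the cleavage and polyadenylation specificity factor. In serial analysis of gene expression (SAGE) a transcript is counted by a short tag that follows its last anchoring site, so a tag reaches the signal only where that site lies close to the 3′ end of the transcript. The 510 tags described here are those whose 17 bases hold either form, out of 17902 different tags found in 4 libraries of pig muscle. Tags whose last 8 bases are all A were left out, which removed 17 further tags with a signal (92 copies, 71 of them in the Large White library made at 9 months). The members made up 3344 of 53120 tags counted. The rule reads only the letters of a tag, so a match is a description and does not show that the hexamer works as a signal in its transcript.

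The libraries were made from total RNA of Longissimus dorsi biopsies of castrated male pigs reared under the same conditions. The lean animal was a Landrace x Duroc pig, which the labels call Dunel, and the fat animal a purebred Large White pig; biopsies were taken from both when they were 3 and again when they were 9 months old. Below, DU3 and DU9 stand for the libraries of the Landrace x Duroc pig at these ages, and LW3 and LW9 for those of the Large White pig. Both pigs were picked from groups of 10, and each library is the only one of its line and age, so the tests compare libraries and have no replicate check, and line and animal cannot be told apart. DU3, DU9, LW3 and LW9 held 13590, 12980, 13130 and 13420 tags. Lists of values below keep this order of libraries unless stated. A separate age field gives 3 months for all 4 samples; the titles, which give 3 and 9 months, were followed. Tags were not matched to genes here, so no gene is named and the muscle label was not checked against marker genes. A lower share of a tag in whole tissue can come from fewer cells of a type or from less RNA per cell, and these cannot be told apart.

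The tags are named S1, S2 and so on by their number of copies over the 4 libraries. The 12 most abundant carry most of the counts described below and are shown from base 1, the first base after the anchoring site CATG, 5′ to 3′, with the signal in capitals.
S1: taccatcAATAAAgtac
S2: tgAATAAAgttgtcaac
S3: ttcaAATAAAcaggagg
S4: aaAATAAAcatcctcgg
S5: ctcgttctgaAATAAAg
S6: atctgccgttAATAAAg
S7: cAATAAActgaaaagag
S8: cagtggagaAATAAAgt
S9: cttactaaAATAAAaac
S10: gtgggaaactcATTAAA
S11: AATAAAtgacttcttcc
S12: gcccccAATAAAggcat

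S10 is the only one of these 12 with the variant form. The next 3 tags of that form by abundance are shown for comparison with S10, with the signal again in capitals; the last of them ties at 5 copies with another variant tag, S43.
S16: gtagaATTAAAggcgga
S34: ATTAAAgtgcgcgtggg
S40: aATTAAAaaaagaaaaa

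The canonical form outnumbered the variant, more so in copies than in different tags. AATAAA was held by 389 tags with 3121 copies and ATTAAA by 121 tags with 223 copies, or 23.7% of the different tags (95% Wilson interval 20.2% to 27.6%) and 6.67% of the copies (5.87% to 7.56%). Of the 389, 2 tags with 1 copy each held both forms and were counted as canonical. Tags of the canonical form averaged 8.02 copies and those of the variant form 1.84. Of the canonical tags, 24 were found in all 4 libraries, against 1 of the variant tags, S10. Among tags seen a single time, 26.3% (22.0% to 31.1%) had the variant form, against 17.6% (12.4% to 24.5%) of those with 2 or more copies, with overlapping intervals. No pair of abundant tags differed only in the second base of the signal. The single such pair was S7, with 64 copies, and a tag with 1 copy.

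AATAAA was among the most frequent hexamers in these tags. Leaving out tags that end in 8 A, 17718 tags were searched on the strand read in the tag, and each of the 4096 possible hexamers was counted, with overlaps allowed. AATAAA came first by copies and rank 2 by different tags, with 389 against 401 for CTGTGG, while the median hexamer occurred in 43. Of its 3121 copies, 1255 belonged to S1 and 1866 to the other tags, and its rank by copies without S1 was not determined. Some of the 389 tags lay 1 base from a more abundant signal tag, as given by start below. Its share of the different tags searched was 2.20%. ATTAAA, in 123 tags when the 2 tags with both forms are included, was in 0.694% and took rank 204. The other 17 hexamers that differ from AATAAA by 1 base were held by 36 to 369 tags, with a median of 59. The highest of them were AAAAAA with 369, AAGAAA with 199 and AACAAA with 131 tags, so that ATTAAA was not the most frequent single-base variant in these tags. ACTAAA had more copies than ATTAAA, 510 in 85 tags, of which 296 belonged to 1 tag. The reverse complement of the canonical form, TTTATT, was held by 114 tags with 165 copies, and that of the variant, TTTAAT, by 73 tags with 119 copies. Hexamers that overlap AATAAA by 4 or 5 letters were also frequent, among them TAAAAA in 375 tags and AAATAA in 246, and can share tags with it.

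Signal tags were richer in A and T outside the signal as well. The 11 remaining bases of the members were 31.1% A, 20.7% C, 20.9% G and 27.3% T over different tags, against 24.7%, 24.2%, 26.7% and 24.5% over all 17 bases of the other tags. Directly after AATAAA, G followed in 127 of 367 tags in which the next base could be read (34.6%, 29.9% to 39.6%) and A in 118 of 367 (32.2%). Weighted by copies, G followed in 69.9%. Without S1 and its 1-base neighbours, G followed in 30.8% of tags (26.2% to 35.9%) and 47.2% of copies, and A in 34% of tags and 13.9% of copies. The excess of G over A was thus seen in copies and not over different tags. Over different tags, G after the signal still lay above the 20.9% G of all bases outside it. Of the 18 canonical tags with 10 or more copies, 10 had G next, 4 had C, 2 had A and 2 had T. After ATTAAA the next base was A in 55 of 111 tags (49.5%, 40.4% to 58.7%) and G in 23 (20.7%). In 10 of the variant tags, 9 or more of the 11 bases outside the signal were A, among them S40, and 4 canonical tags were as rich in A. Before AATAAA the base was A in 169 of 372 tags (45.4%, 40.4% to 50.5%).

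The signal began at every base from 1 to 12, the last start at which a hexamer fits in 17 bases. For AATAAA the number of different tags per start ran from 17 to 60, with 60 tags starting at base 3, 55 at base 11 and 48 at base 8. Those 3 starts are the ones of S2 and S4, of S5 and S6, and of S1. Of their tags, 24, 18 and 23 lay 1 base from a more abundant signal tag. Counting only tags without such a neighbour, the 3 starts held 36, 37 and 25 tags, and the range over all starts was 14 to 37. For ATTAAA the number ran from 6 to 16 tags per start, with 16 at base 2 and 16 at base 3. The signal began in the first 6 bases in 47.0% of canonical tags (42.1% to 52.0%) and in 60.3% of variant tags (51.4% to 68.6%), or 56.8% of variant tags without the 10 that were rich in A. The median start was base 7 for the canonical and base 5 for the variant form.

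**Figure D1:**
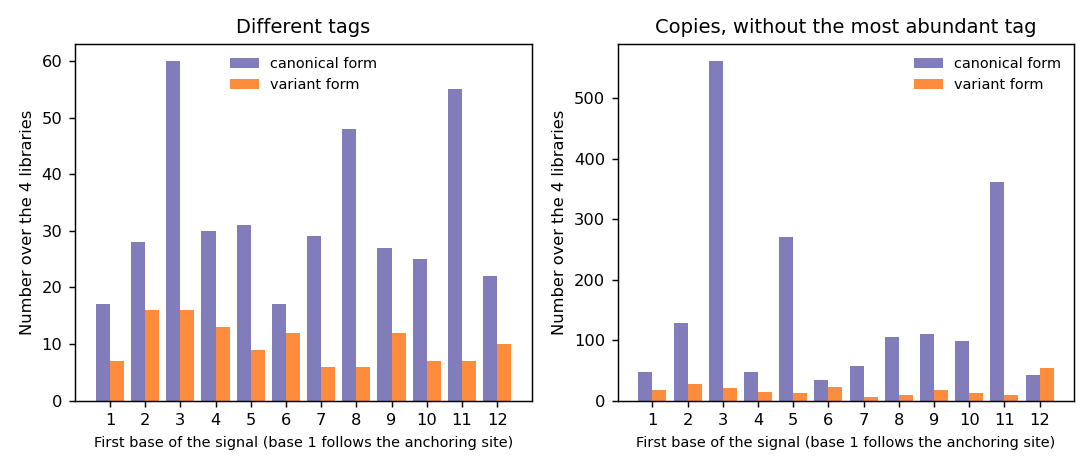
Number of different tags (left) and of copies without S1 (right) over the 4 libraries, by the base at which the signal starts, for the canonical form (purple) and the variant form (orange). Different canonical tags are most frequent at start 3 with 60, start 11 with 55 and start 8 with 48 tags, and most copies lie at a few starts, with 562 at start 3 and 362 at start 11.

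Copies were concentrated at the starts of the abundant tags. Start 8 held 1361 canonical copies with S1 and 106 without it. Start 3 held 562 copies, start 11 held 362 and start 5 held 270, most of them from S2 and S4, from S5 and S6, and from S3. Among the variant tags, start 12 held 54 copies, 44 of them from S10. The share of signal copies that began in the first 6 bases was 41.8%, 29.7%, 32.2% and 42.4% in DU3, DU9, LW3 and LW9. Without S1 these shares were 57.0%, 54.9%, 57.5% and 60.6%, and their intervals overlapped (lowest bound 49.99%, highest 64.6%). Variant copies alone differed in position, with 30.0% (19.1% to 43.8%), 55.9%, 41.2% and 68.2% (57.9% to 77.0%) in the first 6 bases. S10, whose signal ends the tag, gave 26 of the 50 variant copies in DU3. Without the tags rich in A the variant share in LW9 was 58.8% (47.0% to 69.7%).

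Signal tags of the canonical form were seen a single time less often than other tags, and more often in all 4 libraries. Of them 67.6% (62.8% to 72.1%) were seen a single time and 6.17% (4.18% to 9.02%) were in all 4. The variant form did not show this. Its shares were 77.7% (69.5% to 84.2%) and 0.826% (0.146% to 4.53%), with intervals that include the values of the other tags. With 10 or more copies it had 1.65% (0.454% to 5.83%), and 107 of its 121 tags were in a single library. The values that follow count both forms. Of the members 357 (70.0%, 65.9% to 73.8%) were seen a single time, against 79.2% (78.6% to 79.8%) of all other tags. In all 4 libraries 25 members were found (4.90%, 3.34% to 7.14%), against 3.01% (2.76% to 3.27%) of the others. With 10 or more copies there were 20 members (3.92%, 2.55% to 5.98%), against 2.55% (2.33% to 2.80%) of the others, and these intervals overlapped. The 20 held 76.1% of the members' copies, while the 444 other tags of that abundance held 52.0% of the others' copies. S1 alone, with 1255 copies, made up 37.5%. In a single library 391 members were found (76.7%, 72.8% to 80.1%), against 84.3% (83.8% to 84.9%) of the others. By library these were 81, 51, 119 and 140 members in DU3, DU9, LW3 and LW9. They made up 52.9%, 42.1%, 56.1% and 61.9% of the members found in that library, against 63.5%, 59.1%, 63.2% and 77.4% of the other tags found in it.

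The summed share of signal tags was highest in LW3. Signal tags made up 5.22% of DU3 (4.86% to 5.61%), 5.66% of DU9 (5.28% to 6.07%), 8.59% of LW3 (8.12% to 9.08%) and 5.75% of LW9 (5.36% to 6.15%). LW3 lay above the other 3, whose intervals overlapped one another. Its share was 1.64 times that of DU3 (1.50 to 1.80) and 1.50 times that of LW9 (1.37 to 1.63). Each library's tags were amplified as ditags without molecular identifiers, so these intervals cover counting error only, and no test was made on the sums.

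Without S1, in both the signal tags and the library total, the shares lay closer together and their order differed. They were 3.89% in DU3 (3.57% to 4.23%), 3.14% in DU9 (2.85% to 3.46%), 4.99% in LW3 (4.63% to 5.39%) and 4.09% in LW9 (3.77% to 4.45%). In both pigs the share was then lower at 9 than at 3 months, by a factor of 1.24 (1.09 to 1.41) in the Landrace x Duroc pig and 1.22 (1.09 to 1.36) in the Large White pig. At both ages the Large White pig had the higher share, by 1.28 times (1.15 to 1.44) at 3 months and 1.30 times (1.15 to 1.48) at 9 months. With S1 counted, DU9 over DU3 had been 1.08 (0.980 to 1.20). In the Large White pig the fall lay in S2 to S20, with a ratio of LW9 to LW3 of 0.691 (0.593 to 0.805). Members with under 10 copies had a ratio of 1.07 (0.902 to 1.27) there. In the Landrace x Duroc pig these ratios were 0.819 and 0.754. Over all 464 tested tags, the median log2 change in the Large White pig was -0.50, so a fall there was not particular to signal tags.

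**Figure D2:**
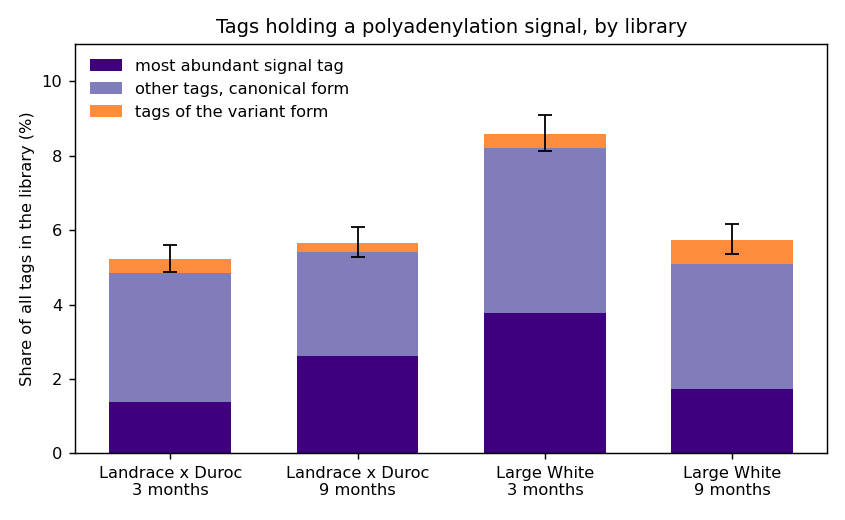
Share of all tags in each library (%) held by S1 (dark purple), by the other tags with the canonical signal (light purple) and by tags with the variant signal (orange), with the 95% Wilson interval of the total. LW3 stands at 8.59% and the other 3 libraries between 5.22% and 5.75%, and S1 takes between 1.39% and 3.79%.

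The excess of LW9 over DU9, without S1, lay among the rare signal tags. Members with under 10 copies in all had 168, 121, 243 and 266 copies in DU3, DU9, LW3 and LW9. Their share in LW9 was 2.13 times that in DU9 (1.72 to 2.63), whereas S2 to S20 together held 274 copies in LW9 and 276 in DU9, a ratio of 0.960 (0.814 to 1.13). For LW3 over DU3 these ratios were 1.50 (1.23 to 1.82) and 1.14 (0.987 to 1.31). Rare tags of any kind were also most frequent in LW9. Tags counted a single time in a library made up 29.5%, 25.8%, 32.5% and 49.3% of the tags in DU3, DU9, LW3 and LW9. LW9 had 7665 different tags, against 4437 to 5241 in the others, and signal tags were 2.95% of them, against 2.97% in DU3, 2.73% in DU9 and 4.05% in LW3. Tags without a signal had a mean GC content of 58.5%, 56.8%, 52.9% and 50.5% in DU3, DU9, LW3 and LW9. The part of this GC difference in the shares of the A- and T-rich signal tags was not tested.

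The variant form had its highest share in LW9. ATTAAA tags had 50, 34, 51 and 88 copies in DU3, DU9, LW3 and LW9. As shares these were 0.368%, 0.262% and 0.388%, against 0.656% (0.533% to 0.807%) in LW9, a ratio of 1.69 (1.20 to 2.38) to LW3 and of 2.50 (1.69 to 3.72) to DU9. Over the same step from 3 to 9 months in the Large White pig, canonical tags without S1 were lower by a factor of 1.34 (1.19 to 1.51). The variant accordingly made up 11.4% of signal copies in LW9 (9.36% to 13.9%), against 7.04%, 4.63% and 4.52% in DU3, DU9 and LW3. Without S1 it was 16.3% (13.4% to 19.6%) against 9.60%, 8.56% and 8.08%. The 88 copies were spread over 64 different tags, 43 of them seen a single time. The 10 variant tags rich in A, which resemble the tags ending in 8 A that were left out, had 0, 2, 0 and 20 copies. Without them the variant had 68 copies in LW9 (0.507%, 0.400% to 0.642%), a ratio of 1.30 (0.908 to 1.87) to LW3 and of 2.06 (1.35 to 3.13) to DU9. Its excess over LW3 was therefore no longer beyond counting error, and its interval overlapped that of DU3 (0.279% to 0.485%). Among signal tags with 2 or more copies, the variant made up 5.85% (4.27% to 7.95%), 3.20%, 2.45% and 6.98% (5.25% to 9.21%) of copies in DU3, DU9, LW3 and LW9. The intervals of DU3 and LW9 overlapped there as well.

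Many hexamers 1 base from the signal were also most frequent in LW9. Among tags without a signal, 13 of the 17 other single-base variants of AATAAA had their highest share in LW9 and 4 in LW3. Their lowest share was in DU3 for 8, in DU9 for 7 and in LW3 for 2. With AAAAAA left out, their counts in these tags summed to 379, 406, 637 and 739 in DU3, DU9, LW3 and LW9. TTTATT had 28, 30, 53 and 47 copies in the same tags, highest in LW3. Higher counts in LW3 and LW9 were thus also seen for A- and T-rich hexamers that are neither form of the signal.

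S1 had the largest counts of all members in every library. It was counted 189 times in DU3 (1.39%, 1.21% to 1.60%) and 338 times in DU9 (2.60%, 2.34% to 2.89%). In LW3 it was counted 497 times (3.79%, 3.47% to 4.13%), and in LW9 231 times (1.72%, 1.51% to 1.96%). The 2 pigs thus moved in opposite directions, with LW3 highest and DU3 lowest. Between 3 and 9 months it rose 1.87-fold in the Landrace x Duroc pig (95% interval 1.57 to 2.23, adjusted p = 9.997e-11) and fell 2.20-fold in the Large White pig (1.88 to 2.56, adjusted p = 1.40e-22), each by a two-sided Fisher's exact test, adjusted by Benjamini-Hochberg over the 464 tags with 10 or more copies. At 3 months it was 2.72-fold higher in LW3 than in DU3 (2.31 to 3.21). At 9 months it was 1.51-fold lower in LW9 than in DU9 (1.28 to 1.78), a direction that turned under TMM library sizes (trimmed mean of M values, which scale to the bulk of tags), with a log2 difference of 0.13 and adjusted p = 0.757, against -0.60 as counted. With totals of tags of similar GC content as library sizes, the 3 month difference was 0.23 on the log2 scale in place of 1.44 and did not pass (adjusted p = 0.165), whereas the 9 month difference was -1.39 (adjusted p = 4.16e-33). The total used, of tags with 0 to 5 G or C bases, was 1001, 1274, 2235 and 2276 copies in DU3, DU9, LW3 and LW9. It includes S1 itself, and it also served for S2 and S7 below. The size of the age changes of S1 depended on the library sizes as well. As log2 changes they were 0.90 (DU9 over DU3) and -1.14 (LW9 over LW3) as counted, and 0.82 and -0.60 with TMM sizes. With totals of similar GC content they were 0.49 and -1.13. Both age changes passed in each of these settings.

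S1 also took a large part in repeated ditags. A ditag is a pair of tags joined before amplification, and the same pair seen again may be a copy made by amplification. With repeats reduced to 1 copy of each ditag, S1 had 110, 156, 248 and 158 copies in DU3, DU9, LW3 and LW9. The copies beyond the first were 41.8%, 53.8%, 50.1% and 31.6% of S1, against 14.8%, 18.6%, 14.1% and 6.40% of the tags without a signal. The most frequent partner of S1 in repeated ditags accounted for 292 copies of the pair. An abundant tag meets another abundant tag more often than a rare one does, and the part of amplification in these repeats was not tested. Both age changes of S1 passed with repeats counted once, at log2 changes of 0.64 (DU9 over DU3) and -0.82 (LW9 over LW3), against 0.90 and -1.14 with all copies. Its difference at 9 months did not (log2 difference -0.24, adjusted p = 0.433).

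Tags that differ from S1 by 1 base were also found. There were 29 of them with 100 copies, or 7.97% of S1's count, and 19 of the 29 kept the signal. The 4 with the most copies that kept the signal are shown, S15 and S30 with a change at the last base, S22 at base 16 and S33 at base 2.
S15: taccatcAATAAAgtat
S22: taccatcAATAAAgtgc
S33: ttccatcAATAAAgtac
S30: taccatcAATAAAgtag

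Counted from base 1 of S1, these are the changes C17T with 14 copies, A16G with 9, A2T with 7 and C17G with 7. The 10 neighbours that lost the signal had 29 copies, of which A8G, the first base of the signal, had 8. Bases 16 and 17 together carried 42 of the 100 copies, or 21.0 per base, against 3.71 per base before the signal, 4.83 per base within it and 3 copies in all at bases 14 and 15. Between 63.3% and 69.2% of the different ditags in each library were shorter than 34 bases, so that both tags read from such a ditag share its middle bases and the end of a tag can come from its partner; the part of this in the neighbours was not tested. In DU3, DU9, LW3 and LW9 the neighbours came to 7.94%, 8.88%, 6.84% and 9.09% of the count of S1. Over all members, 108 tags with 183 copies lay 1 base from a more abundant signal tag. Leaving these out left 402 tags with 3161 copies.

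**Figure D3:**
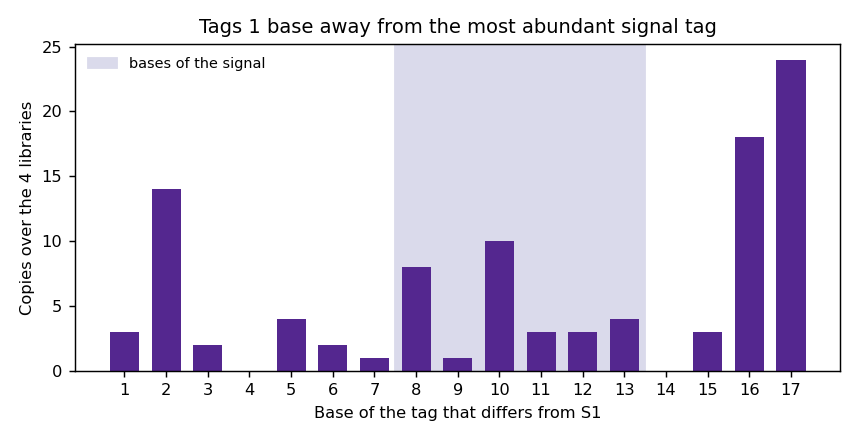
Copies over the 4 libraries of tags that differ from S1 by 1 base, by the base that differs, with the bases of the signal shaded. Base 17 holds 24 copies and base 16 holds 18, more than any other base.

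Of the 510 members, 20 reached the minimum of 10 copies and could be tested, 18 of the canonical and 2 of the variant form, and 5 of these 20 (S1, S3, S8, S10 and S16) passed in at least 1 of the comparisons of 2 libraries. The remaining 15 passed in none of them. The share of all 464 tested tags that passed in at least 1 of these comparisons was not counted. The 5 of 20 is therefore not read as particular to the members, and shares per comparison are given below.

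S3 was counted 51, 22, 105 and 42 times in DU3, DU9, LW3 and LW9. Each pig had the lower count at 9 months, and each age the higher count in the Large White pig. From 3 to 9 months it fell 2.19-fold in the Landrace x Duroc pig (1.33 to 3.59, Fisher's exact test, adjusted p = 0.0176) and 2.54-fold in the Large White pig (1.78 to 3.62, adjusted p = 2.96e-06). It was 2.12-fold higher in LW3 than in DU3 (1.52 to 2.96, adjusted p = 0.000103), whereas the 9 month value of 1.83-fold (1.10 to 3.04) did not pass (adjusted p = 0.130). Under TMM library sizes the 9 month difference passed, at 1.59 on the log2 scale (adjusted p = 0.000412). The log2 age change in the Large White pig was then -0.81 (adjusted p = 0.0304), against -1.34 as counted. With repeated ditags counted once, the log2 change in the Landrace x Duroc pig was -1.02 and did not pass (adjusted p = 0.0993).

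S8 was counted 9, 10, 31 and 10 times in DU3, DU9, LW3 and LW9, with LW3 above the others. It fell 3.07-fold with age in the Large White pig (1.53 to 6.16, Fisher's exact test, adjusted p = 0.0119) and was 3.43-fold higher in LW3 than in DU3 (1.66 to 7.09, adjusted p = 0.00369). The age change did not pass under TMM library sizes (log2 change -1.08, adjusted p = 0.218). With repeated ditags counted once, neither the age change (adjusted p = 0.222) nor the line difference (adjusted p = 0.0887) passed.

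The variant tag S10 was counted 26 times in DU3 and 7, 6 and 5 times in DU9, LW3 and LW9. From DU3 to DU9 it fell 3.37-fold (1.50 to 7.59, Fisher's exact test, adjusted p = 0.0176). In LW3 it was 3.94-fold lower than in DU3 (1.67 to 9.29, adjusted p = 0.0053). The age change did not pass with repeated ditags counted once (log2 change -1.37, adjusted p = 0.279). S10 thus ran against the summed share of its form, which was highest in LW9. The variant tag S16 was not seen in DU3 and was counted 9 times in DU9, at least 3.14-fold higher against the limit of 3 counts that a count of 0 allows, with the 9 copies taken as exact (Fisher's exact test, adjusted p = 0.0179). With counting error in both libraries, the 95% interval of the fitted fold began at 1.16. LW3 and LW9 held 1 and 2 copies of it. With repeated ditags counted once, S16 had fewer than 10 copies in all and was not tested. S34 had 3, 0, 1 and 2 copies and S40 had 0, 1, 0 and 4 in DU3, DU9, LW3 and LW9, too few to test.

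The tags S2, S4, S5, S6, S7, S9, S11 and S12 did not pass in any comparison with library totals as deposited, but 4 of them passed with other library sizes. S2 was counted 66, 75, 86 and 67 times in DU3, DU9, LW3 and LW9. With totals of tags of similar GC content it was lower in LW3 than in DU3 (log2 difference -0.78, Fisher's exact test, adjusted p = 0.0108) and in LW9 than in DU9 (-0.999, adjusted p = 0.000609). S4 was counted 54, 31, 41 and 48 times. With TMM sizes S4 was higher in LW9 than in DU9 (log2 difference 1.30, adjusted p = 0.00137). S5, whose signal ends 1 base before the tag does, was counted 40, 37, 28 and 30 times. S6 had its highest count in DU3, with 40, 30, 23 and 18 copies, and with totals of similar GC content it was lower in LW3 than in DU3 (-1.16, adjusted p = 0.0198). S18 differs from S6 only by C3G and T4G and was counted 4, 2, 5 and 0 times. S7 was counted 21, 20, 14 and 9 times, and S9 was counted 5, 11, 14 and 15 times. These 2 had their lowest and highest count, respectively, in LW9. With totals of similar GC content S7 was lower in LW3 than in DU3 (-1.73, adjusted p = 0.00552) and in LW9 than in DU9 (-1.95, adjusted p = 0.00386). S11, in which the signal is the first 6 bases, was counted 11, 4, 11 and 4 times, and S12 was counted 8, 6, 2 and 1 times. Over the 20 tested tags, the library with the highest share was LW3 for 8, DU3 for 7, LW9 for 3 and DU9 for 2.

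**Figure D4:**
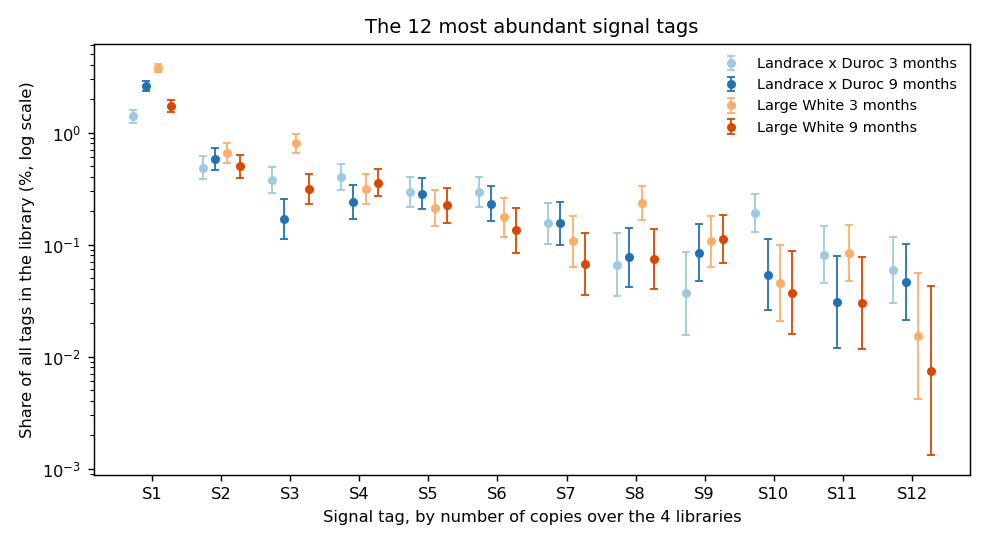
Share of all tags in each library (%, log axis) for the 12 most abundant signal tags, with 95% Wilson intervals; blue marks the Landrace x Duroc and orange the Large White libraries, the darker shade 9 months. S1 spans 1.39% to 3.79%, and the intervals of S2 overlap across all 4 libraries.

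Against the background of all 464 tested tags, the share of members that passed was small in number and not read as particular to them. In the age comparison of the Landrace x Duroc pig, 2 of the 20 members were higher at 9 months, where 6.47% of all tested tags were, and 2 were lower, against 4.31%. In the Large White pig 0 of 20 were higher, against 2.59%, and 3 were lower, against 7.76%. Between the lines at 3 months, 3 of 20 were higher in LW3, against 8.19%, and 1 was lower, against 8.41%. At 9 months 0 of 20 were higher in LW9, against 4.53%, and 1 was lower, against 10.1%. The 2 comparisons that use the same library, such as the age change of a pig and the line difference at 3 months, are not independent of each other.

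The median log2 change over the 20 members was -0.33 in the Landrace x Duroc pig, beside 0.07 over all 464 tags, and -0.38 in the Large White pig, beside -0.50. For Large White over Landrace x Duroc it was 0.19 at 3 months, beside -0.06, and -0.13 at 9 months, beside -0.58. TMM library sizes moved the median of all tags to -0.02, 0.03, 0.04 and 0.14 in these 4 comparisons, and that of the members to -0.42, 0.15, 0.30 and 0.59, so that the direction of the members' median turned in the Large White pig and between the lines at 9 months. With library sizes from tags of similar GC content, the members' median between the lines at 3 months turned to -0.72. Of the 20, 2 then passed as higher and 4 as lower. Over all 464 tags the median was -0.02, and 32 passed as higher and 34 as lower.

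The difference of the age changes between the pigs was tested directly for each tag. On the log2 odds scale, S1 changed by -1.17 in the Large White pig and by 0.92 in the Landrace x Duroc pig. The signed difference, Large White minus Landrace x Duroc, was -2.09 ± 0.18 (standard error, z test on log odds ratios, adjusted p = 8.60e-30 by Benjamini-Hochberg over 464 tags). S1 was the 1 of 20 members that passed with a negative difference, where 6.03% of all tested tags passed in that direction. In the other direction 0 of 20 passed, against 0.862%. S8 had a difference of -1.83 ± 0.83 (adjusted p = 0.170) and S4 of 0.92 ± 0.44 (adjusted p = 0.210), neither of which passed. Under TMM sizes the difference of S4 passed, at 1.54 (adjusted p = 0.0160). S3, which fell in both pigs, had a difference of -0.22 ± 0.45 (adjusted p = 0.845), which did not pass.

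**Figure D5:**
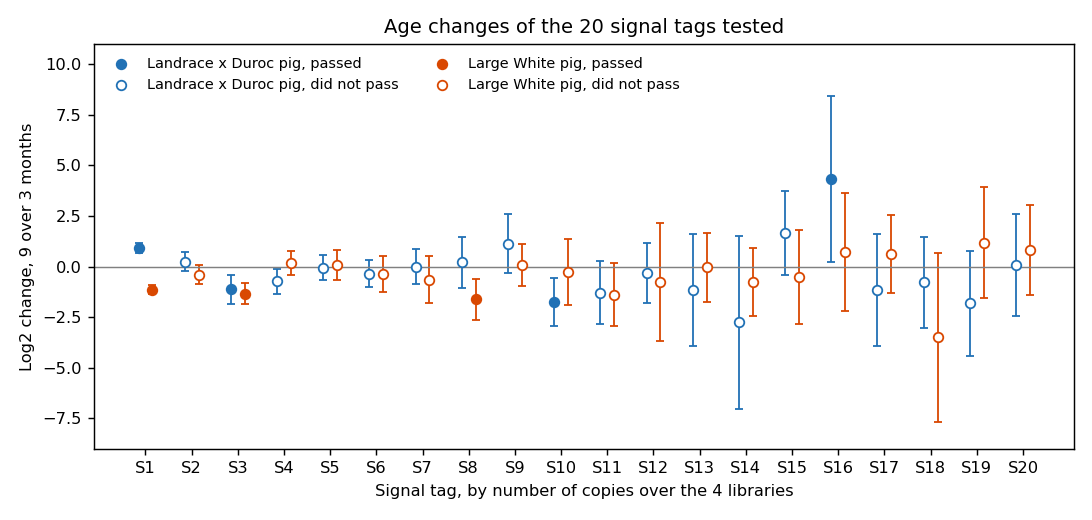
Log2 change from 3 to 9 months with 95% intervals for counting error in the Landrace x Duroc pig (blue) and the Large White pig (orange) for the 20 signal tags tested; filled points passed at an adjusted p of 0.05. S1 lies at 0.90 and -1.14 in the 2 pigs, and S3 at -1.13 and -1.34.

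Over both pigs together, no age change passed. In the quasi-likelihood test of edgeR with the pig as a block, 0 of 464 tags passed (0% called). Before adjustment 16 of them had a p under 0.05, and 0 of those were signal tags. The signal tag with the smallest p was S16, with an adjusted p of 0.998 in edgeR. DESeq2 also called 0, and before adjustment it gave 3 tags a p under 0.05, 0 of them members. This fit has 1 residual degree of freedom.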

How the data were processed

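SAGE tags were counted in 4 libraries. The authors' deposited tag counts and percent values come, per the file headers, from SAGEparser.pl version 3.1, which takes a 17-base tag from each end of ditags of 32 to 36 bases and does not remove repeated ditags. Tags were not assigned to genes here. Counts were used as deposited, and the deposited percent column only to check them. Each library's list of repeated ditags served to count them a single time.

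Members were found by a search for AATAAA or ATTAAA in each tag. Where a tag held both, it was counted as AATAAA. Tags counted at least 10 times in the 4 libraries together entered two-sided Fisher's exact tests of the tag against all other tags in a pair of libraries. Log odds ratios of age, with 0.5 added to each count, were compared between the pigs by a z test. Ages were compared over both pigs in edgeR 4.0.16 (quasi-likelihood, TMM sizes, the pig as a block) and, as an alternative, DESeq2 1.42.0, in R 4.3.3. P-values were adjusted by Benjamini-Hochberg over all tags tested, and 0.05 was the threshold. Log2 changes have 0.5 added to each count. Intervals are at 95%, for counting error only, and depths of 12980 to 13590 tags limit what can be seen, since 0 copies allow a share of up to 0.0221% to 0.0231%, depending on the library. Python 3.11.15 was used with pandas 2.3.3, NumPy 2.4.6, SciPy 1.17.1 and matplotlib 3.10.9. The scripts were tested on simulated data.

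Tags were named by a rule: the 12 signal tags with most copies, the 4 ATTAAA tags with most copies, up to 3 per direction of each comparison with the smallest p among those that passed, and pairs that differ only in the second base of the signal if the rarer has 3 or more copies. S15, S18, S22, S30, S33 and S43 were named after their values were seen. The signal tags, lists and tests were chosen with earlier results of these data known. The marker and polyadenylation gene lists were not run, since tags were not matched to transcripts. Alternatives were a minimum of 5 or 20 copies, TMM sizes, totals of the same of 5 classes of GC content or without S1, repeated ditags counted a single time, the removal of signal tags rich in A (added after seeing the data), and the removal of tags 1 base from one with 50 or more times their copies.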

Additional observations from a re-analysis of the deposited data

Results flagged for a closer look

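The age change of S1, the most abundant signal tag, differed between the pigs by -2.09 on the log2 scale (Large White minus Landrace x Duroc) in the test of the difference itself, and was singled out for that. The Landrace x Duroc pig had 189 copies at 3 months and 338 at 9, and the Large White pig 497 and 231. With repeated ditags counted once the difference was -1.48, and with TMM library sizes -1.45, and it passed in both. Each pig gave 1 library per age, so the spread between animals was not measured.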

How the results depend on the processing

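Of the 4 signal tags that passed in the Landrace x Duroc age comparison, 1 passed with repeated ditags counted once. Over all 464 tags, 30 passed there as higher and 20 as lower, against 20 and 11 of 448 with repeats counted once. Between the lines at 9 months the number that passed was 1, against 2 with TMM sizes (S3 and S4, both higher), 3 with totals of the same GC class (S1, S2 and S7, all lower) and 0 with repeats counted once. Over all tags, 21 passed there as higher and 47 as lower. These counts were 26 and 7 with TMM sizes, 17 and 43 with totals of the same GC class, and 18 and 34 with repeats counted once. The difference of the age changes gave 1 signal tag, against 2 with TMM (S4 added). Over all tags, 4 passed with a positive and 28 with a negative difference, against 12 and 14 with TMM. S1 between the lines at 9 months reversed under TMM, to 0.13, and the cause was not tested. The values that passed kept their direction and their side of the threshold with a minimum of 5 copies, with a minimum of 20 (where S16 was not tested), with totals without S1 and with near copies of abundant tags left out. The fits over both pigs with total-tag sizes, no pig block, no minimum or repeats counted once also gave 0 tags.

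Shares are given for Landrace x Duroc at 3 and 9 months, then Large White at 3 and 9 months. The signal share was 3.89%, 3.14%, 4.99% and 4.09% without S1, 4.16%, 4.87%, 7.75% and 4.94% with the signal within the first 15 bases, 5.97%, 6.49%, 10.2% and 8.27% without tags seen once, and 2.97%, 2.73%, 4.05% and 2.95% of different tags. With repeats counted once it was 4.78%, 7.23% and 5.20% in the last 3 libraries, and with tags ending in 8 A kept it was 6.27% in the last. The AATAAA share of signal copies was 93.0%, 95.4%, 95.5% and 88.6%, against 90.4%, 91.4%, 91.9% and 83.7% without S1 and 86.3%, 84.3%, 81.6% and 71.7% of different tags. It was 96.5% in the first library with the signal within 15 bases, and 81.6% in the last with tags ending in 8 A kept. Without tags seen once it was 94.15%, 96.8%, 97.6% and 93.0%. Without the signal tags in which 9 or more of the other 11 bases are A, a setting added after seeing the data, it was 90.9% in the last library, and the signal shares and positions moved less than their intervals. Copies with the signal in the first 6 bases were 57.0%, 54.9%, 57.5% and 60.6% without S1, and 47.7%, 44.6%, 42.9% and 54.4% of different tags. The fit over both pigs pairs the 2 ages of each pig as a block. Depth limits the tests to 20 of the 510 signal tags.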
